A study of Mus musculus with 36 samples.

Results

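The genes described here are the cytochrome P450 genes of families 1 to 3 in mouse liver, chosen by symbol: Cyp, a family number of 1, 2 or 3, a subfamily letter and a gene number. The rule found 60 genes among the 49315 listed and left out 12 rows whose symbol carries a -ps suffix. They fall into 16 subfamilies, of which Cyp2c with 15 members, Cyp3a with 9, Cyp2d with 8 and Cyp2j with 8 are the largest, and each subfamily lies on 1 chromosome. Liver polyA RNA of 36 male mice, 11 to 12 weeks old, was sequenced, with 9 groups of 4. CRISPR was used to change tryptophan 441 of LXRalpha, a nuclear receptor for oxysterols, to phenylalanine, and mice carried no mutant copy (W/W, the controls), one (W/F) or both (F/F). Mice of each genotype ate normal chow, or for 4 weeks a MASH diet (high in fat and cholesterol, used to bring on metabolic dysfunction-associated steatohepatitis) with vehicle or with the LXR agonist T0901317, 10 mg/kg daily by oral gavage, over the last 2 weeks. The chow mice were a cohort of their own and no gavage is stated for them, so diet, gavage and cohort cannot be told apart. The labels name no litter, founder line or batch, and the residue change itself is not visible in expression values. In what follows "on vehicle" and "on T0901317" mean mice on the MASH diet.

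Cytochrome P450s are haem enzymes of the endoplasmic reticulum that insert oxygen into a substrate with electrons passed on by the reductase Por. These families handle most drugs and other foreign compounds in the liver, and several members also act on steroids, bile acids, arachidonic acid and vitamin D. Many are made mainly by hepatocytes near the central vein, some differ between male and female mice, and nuclear receptors such as PXR, CAR and the aryl hydrocarbon receptor are known for inducing particular members.

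Values are TPM (a share of the transcripts of a library, corrected for gene length), and the depth recovered from them ranged from 18.0 to 35.7 M reads (median 23.8 M; M stands for 1e+06). Differences are log2 fold changes fitted with limma on log2(TPM + 1), a scale that understates the change of low genes, given ± SE, and a gene was called when its p-value adjusted over the 16638 genes tested was under 0.05. Of the 60 members, 45 passed the expression filter, which asked for at least 1 TPM in at least 4 libraries. All 9 measured hepatocyte markers were above 0 in all 36 libraries, as the tissue label requires. Their summed level was 100610.0 to 127454 TPM in W/W livers on vehicle, 81038 to 90569.7 TPM in W/F and 57821 to 65047 TPM in F/F. The summed level of 5 bile duct cell markers (Krt7, Krt19, Epcam, Sox9 and Spp1) in the same groups was 53.98 to 61.4, 1163 to 1589.9 and 2908 to 3554 TPM, and that of 5 macrophage markers was 95.4 to 123, 626 to 1044 and 811 to 1044 TPM. In bulk tissue fewer hepatocytes and less RNA of a gene per hepatocyte cannot be told apart. Because many genes changed, counts are also given with 2 other scalings of the libraries, one on the median ratio of 14786 genes and one on the 9 hepatocyte markers, where these moved the split of higher and lower calls.

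P450 transcripts of the 60 members made up 2.47 ± 0.051% of all TPM in W/W livers on vehicle (mean ± SD, n = 4), 1.43 ± 0.133% in W/F livers and 0.853 ± 0.172% in F/F livers. The summed level in the 4 F/F mice on vehicle was 10861, 7203, 7269 and 8787 TPM, and in the 4 W/W mice 24637, 23957, 24929 and 25121 TPM. The 3 genotypes did not overlap on vehicle. On T0901317 the share was 2.26 ± 0.131% for W/W livers, 3.44 ± 0.261% for W/F livers and 2.16 ± 0.512% for F/F livers, and every W/F mouse was above every W/W mouse. On chow the genotypes overlapped, with shares of 1.97 ± 0.354%, 2.26 ± 0.262% and 1.73 ± 0.233%. Over the 9 hepatocyte markers the summed level was lower by a smaller factor between W/W and F/F on vehicle, from a mean of 113127 to 61833 TPM.

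**Figure D1:**
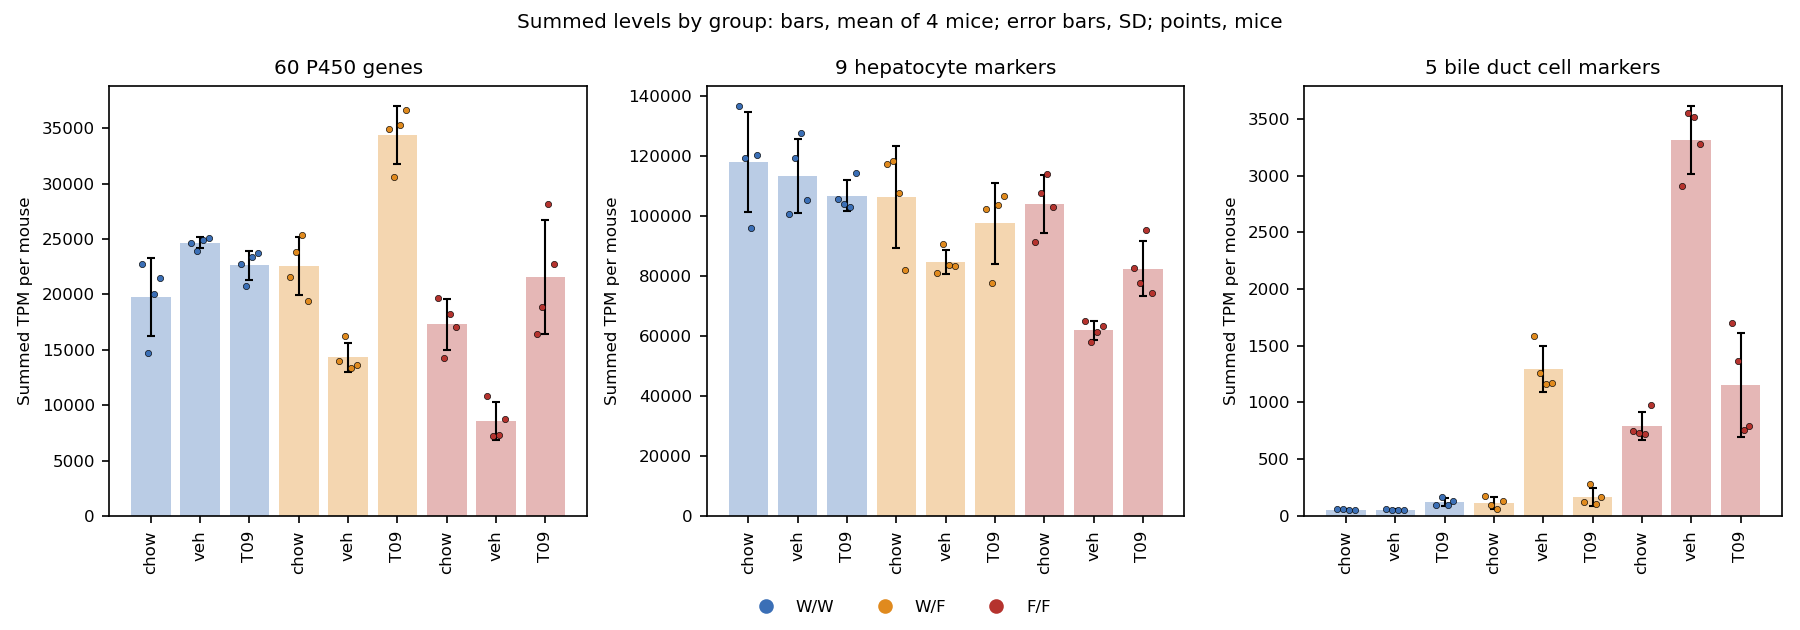
Summed TPM per mouse of the 60 P450 genes (left), 9 hepatocyte markers (middle) and 5 bile duct cell markers (right) in the 9 groups. Bars are means of 4 mice, error bars are SD and points are mice. The P450 sum was lowest in F/F mice on vehicle (7203 to 10861 TPM) and highest in W/F mice on T0901317 (30593 to 36617 TPM), while the bile duct sum was highest in F/F mice on vehicle.

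A few genes held most of this output. In W/W livers on vehicle 7 members had a mean of at least 1000 TPM and 22 at least 100 TPM, and in F/F livers on vehicle 3 and 13 did. Cyp2e1, which oxidises ethanol and other small molecules, gave 39.6% of the P450 TPM in W/W livers on vehicle and 28.8% on chow. Cyp3a11, the most abundant Cyp3a enzyme of mouse liver and a known target of PXR, came first in W/F livers on vehicle with 23.7%, in F/F livers on vehicle with 24.4% and in F/F livers on T0901317 with 31.2%, and Cyp2e1 came first in the other 6 groups. Cyp2j7 and Cyp2w1 were listed at 0 in all 36 libraries, and the other 13 members that missed the filter were Cyp2b13, Cyp2b19, Cyp2b23, Cyp2c65, Cyp2c66, Cyp2d34, Cyp2j8, Cyp2j11, Cyp2j12, Cyp2j13, Cyp2t4, Cyp3a41a and Cyp3a41b.

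**Figure D2:**
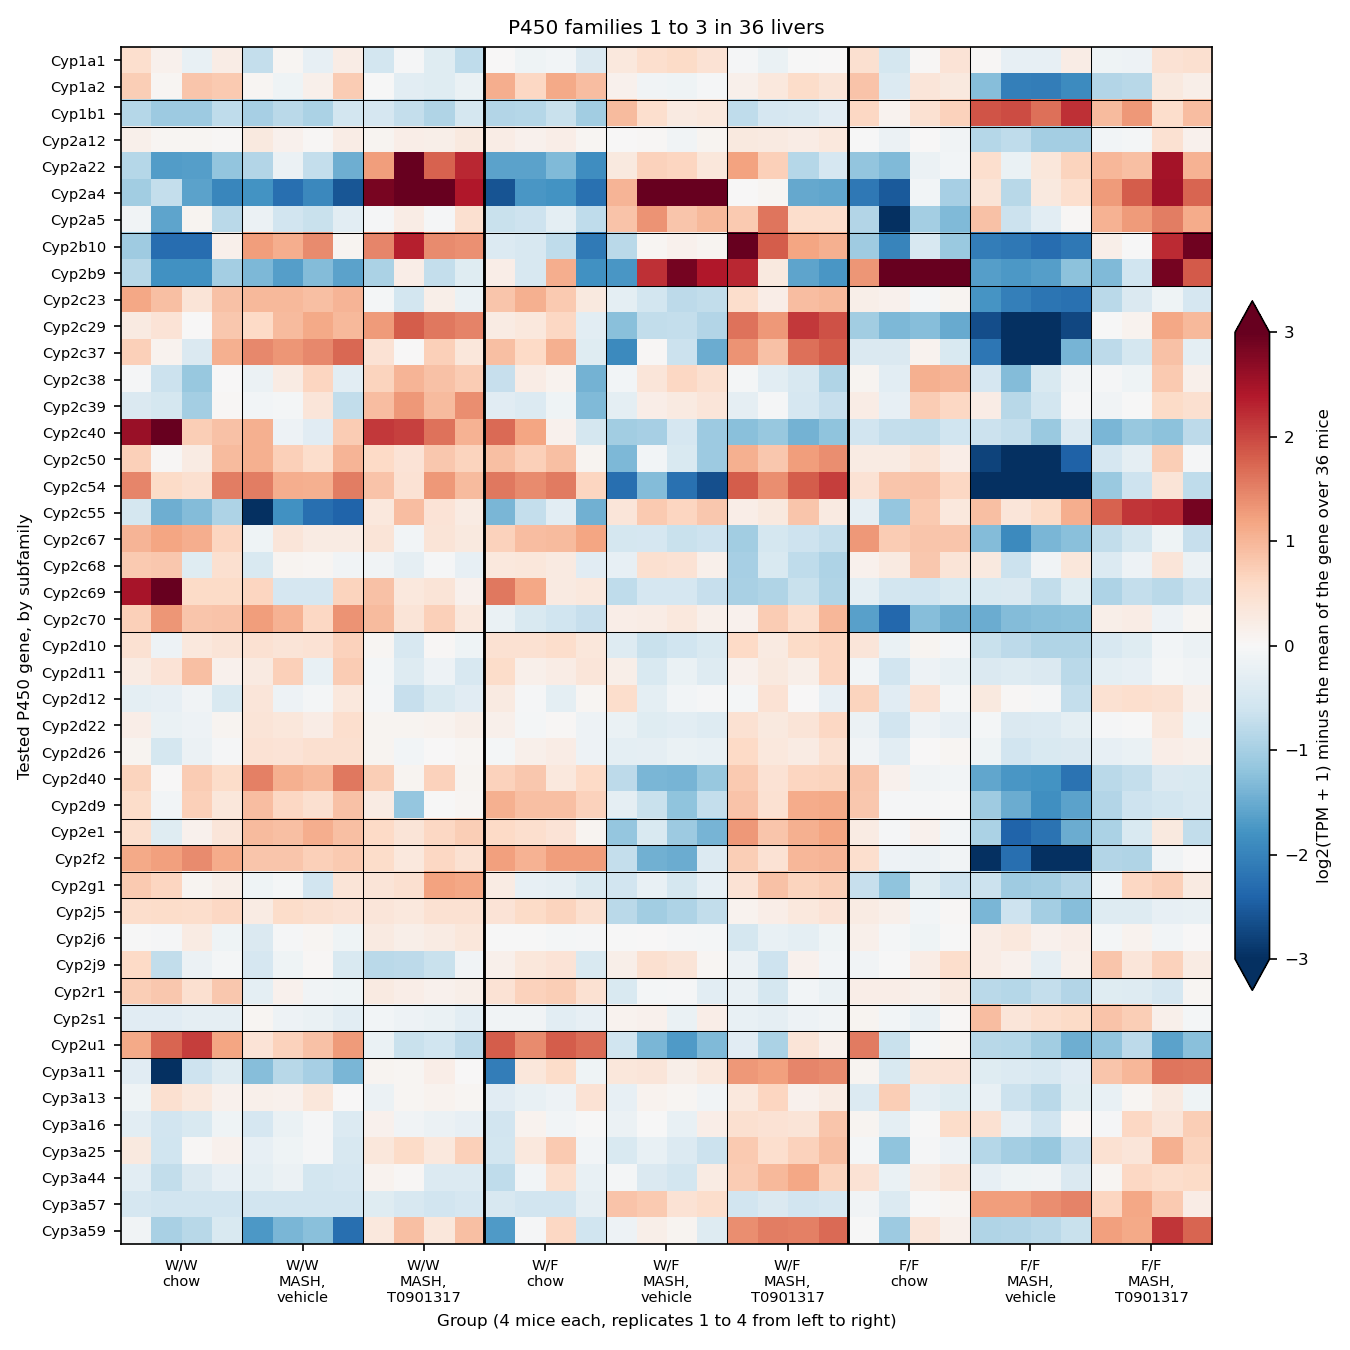
Level of the 45 tested P450 genes (rows, by subfamily) in 36 livers (columns, by genotype and treatment), as log2(TPM + 1) minus the mean of the gene over all mice. Colours run from blue at -3 to red at 3, and values beyond take the end colour. The F/F vehicle columns are blue over most of the Cyp2c, Cyp2d and Cyp2e rows, and Cyp1b1, Cyp2c55 and Cyp3a57 are red there.

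On vehicle Cyp2e1, Cyp2c29, Cyp2c54, Cyp2f2 and Cyp2d9 were lower in both mutant genotypes than in W/W livers, and Cyp1b1 and Cyp2c55 were higher. Between F/F and W/W mice 8 of the 45 tested members were higher and 25 lower, against 69.3% and 7.13% of all 16638 genes tested. Here the median log2 difference was -0.70 over the members and 0.70 over all genes. The split became 5 and 30 with median-of-ratios scaling and 13 and 19 with hepatocyte-marker scaling. Between W/F and W/W mice 11 members were higher and 18 lower, against 61.6% and 6.83% of all genes, with medians of -0.21 over the members and 0.52 over all genes. Calls split into 6 and 27 with median-of-ratios scaling and 13 and 17 with hepatocyte-marker scaling. Both comparisons with W/W use the same 4 W/W mice. Between F/F and W/F mice 4 members were higher and 19 lower, against 19% and 2.3% of all genes. The calls became 2 and 23 with median-of-ratios scaling and 5 and 14 with hepatocyte-marker scaling.

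Within the Cyp2c subfamily 8 of 13 tested members were lower in F/F than in W/W livers on vehicle and 1 was higher (11 lower with median-of-ratios scaling, 7 lower and 2 higher with hepatocyte-marker scaling). Of all genes 7.13% were lower and 69.3% higher. The 3 neighbouring genes Cyp2c37, Cyp2c54 and Cyp2c50, which oxidise arachidonic acid, lie side by side on chromosome 19 and share 95.1% to 96.1% of their coding sequence. Cyp2c54 was at 396, 290.3, 289 and 396 TPM in the 4 W/W mice on vehicle, at 27.9, 55.2, 28 and 21.1 TPM in W/F and at 7.91, 4.03, 4.06 and 8.19 TPM in F/F. No W/F mouse reached the lowest W/W mouse, and no F/F mouse the lowest W/F mouse. The log2 fold change of Cyp2c54 was -5.65 ± 0.30, adjusted p = 8.4e-16 for F/F against W/W, a 56.7-fold difference of means, and -3.41 ± 0.30, adjusted p = 6.1e-11 for W/F. Cyp2c37 differed by -4.18 ± 0.44 in F/F and -2.49 ± 0.44 in W/F, and Cyp2c50 by -4.06 ± 0.30 and -1.57 ± 0.30, all 4 called. Because 18.3% to 30.1% of the 50-base words of these 3 genes also occur in another gene, reads may have been split among them, and their summed level is the safer value. That sum was 1528, 1241, 1212 and 1607 TPM in W/W, 198, 535, 369.8 and 233 TPM in W/F and 91.2, 28.8, 50.8 and 130.5 TPM in F/F mice on vehicle, with no overlap between genotypes.

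Cyp2c29, an epoxygenase known to respond to CAR, was at 968, 1231, 1407 and 1248 TPM in W/W, 269, 385, 390.4 and 349 TPM in W/F and 99.7, 38.7, 67.8 and 96.2 TPM in F/F livers on vehicle. Its differences from W/W were -4.06 ± 0.26, adjusted p = 2.6e-14 in F/F and -1.800 ± 0.26, adjusted p = 4.6e-07 in W/F. Cyp2c23, another arachidonic acid epoxygenase that lies apart from the other 14 Cyp2c genes (chr19:44005022-44029208 on GRCm38), shares no 50-base word with other genes and read 472, 472, 452 and 491 TPM in W/W against 69.8, 57.7, 51.6 and 49.9 TPM in F/F mice (-3.03 ± 0.18, adjusted p = 6.2e-15). The 2 groups did not overlap for either gene. Cyp2c55, which forms hydroxylated arachidonic acid, moved the opposite way: 1.97, 6.44, 4.44 and 3.94 TPM in W/W, 32.9, 43.9, 39.8 and 44.98 TPM in W/F and 48.2, 32.9, 38.2 and 54.8 TPM in F/F mice. It was called in F/F (3.15 ± 0.32, adjusted p = 3.2e-10) and in W/F (3.06 ± 0.32, adjusted p = 1.4e-09), with every mutant mouse above every W/W mouse. Cyp2c70, which makes the muricholic acids of mouse bile, differed on vehicle by -2.39 ± 0.19, adjusted p = 3.0e-12 in F/F.

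**Figure D3:**
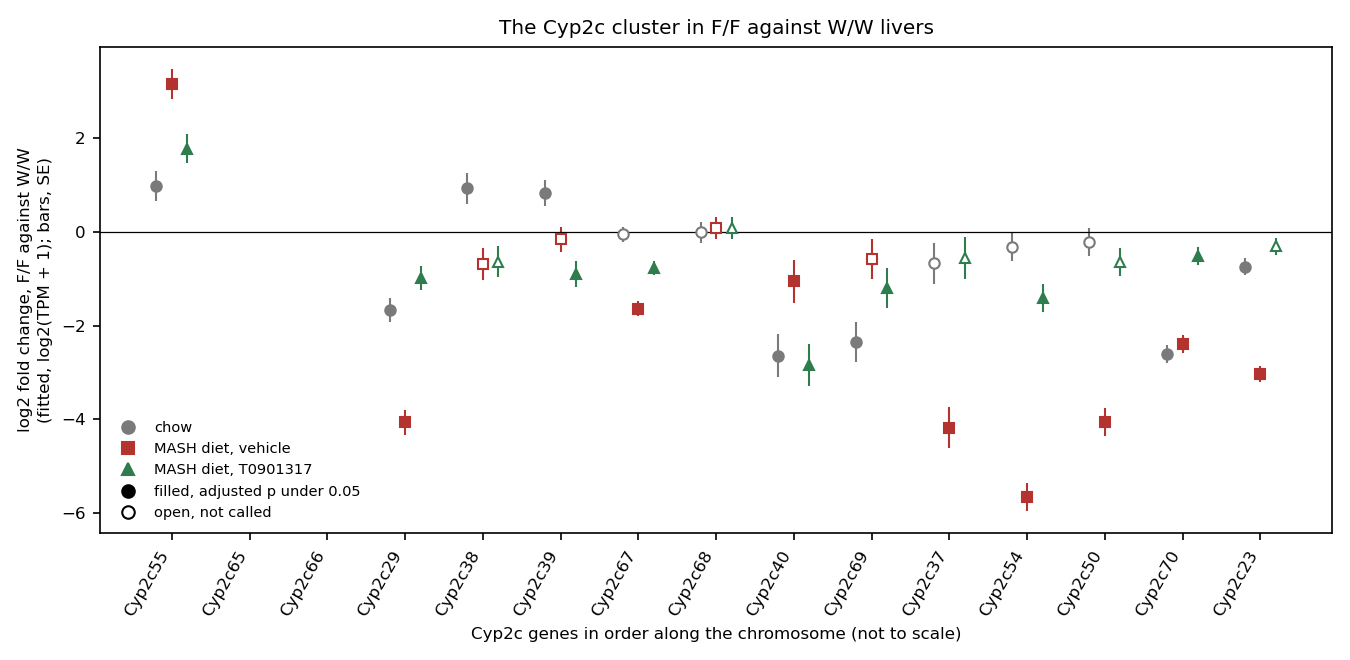
Fitted log2 fold change of F/F against W/W for the Cyp2c genes in their order on the chromosome (not to scale), on chow (circles), on vehicle (squares) and on T0901317 (triangles). Bars are SE, filled symbols were called and open ones were not, and Cyp2c65 and Cyp2c66 were not tested. On vehicle Cyp2c54 lies lowest at -5.65 and Cyp2c55 highest at 3.15, and Cyp2c70 lies near the same value on chow and on vehicle.

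Outside the Cyp2c cluster, Cyp2e1 was at 9694, 9343, 10627 and 9349.7 TPM in W/W, 2213, 3622, 2351 and 1885 TPM in W/F and 2599, 939, 1075 and 1781 TPM in F/F livers on vehicle. W/F and F/F mice overlapped and both lay below all W/W mice (-2.73 ± 0.25, adjusted p = 3.8e-11 in F/F and -1.996 ± 0.25, adjusted p = 3.8e-08 in W/F). Cyp2f2, known for activating naphthalene and expressed by hepatocytes near the portal vein, read 1114, 1115, 1021 and 1079.5 TPM in W/W, 379, 228, 219 and 464 TPM in W/F and 69.5, 129, 65.4 and 54.3 TPM in F/F mice, 3 separate ranges. The difference of Cyp2f2 was -3.83 ± 0.23, adjusted p = 8.5e-15 in F/F and -1.82 ± 0.23, adjusted p = 5.4e-08 in W/F. Both a gene of the central vein side and a gene of the portal side were thus lower. Of the 8 members listed as pericentral 6 were lower and none higher in F/F livers on vehicle, against 7.13% and 69.3% of all genes. In W/F 5 were lower and 2 higher, against 6.83% and 61.6%. The list counts the near copies Cyp2c37, Cyp2c50 and Cyp2c54 singly, though their reads may have been split. Hepatocyte-marker scaling called 2 of the 8 higher in F/F, and median-of-ratios scaling called 6 lower and none higher in W/F. The 2 pericentral members that were higher in W/F livers were Cyp2a5 (1.43 ± 0.37), the coumarin and nicotine hydroxylase, and Cyp3a11 (1.42 ± 0.47), neither of them called with median-of-ratios scaling. Cyp1a2, the caffeine hydroxylase, was at 550.2, 477, 586 and 893 TPM in W/W and 217, 126, 124 and 142 TPM in F/F mice on vehicle (-2.03 ± 0.25, adjusted p = 1.3e-08) and was not called in W/F (-0.25 ± 0.25, adjusted p = 0.376), where median-of-ratios scaling called it lower and hepatocyte-marker scaling put it at 0.053.

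In the Cyp2d subfamily 6 of 7 tested members were lower in F/F and 6 lower in W/F livers than in W/W livers on vehicle, and none was higher. Over all genes 7.13% were lower and 69.3% higher in F/F, and 6.83% and 61.6% in W/F. With hepatocyte-marker scaling the Cyp2d counts were 4 and 5, and with median-of-ratios scaling 7 and 7, none higher. Cyp2d9, a male-biased testosterone hydroxylase, was at 2484, 2008, 1828 and 2419.7 TPM in W/W, 1079, 818, 562 and 796 TPM in W/F and 624, 461, 367 and 429 TPM in F/F mice (-2.23 ± 0.24, adjusted p = 1.5e-09 in F/F and -1.45 ± 0.24, adjusted p = 5.0e-06 in W/F). All W/W mice lay above all mutant mice. Cyp2d40 differed most within the subfamily, by -3.11 ± 0.20, adjusted p = 3.2e-14 in F/F and -2.45 ± 0.20, adjusted p = 1.4e-11 in W/F. Cyp2j5, an abundant epoxygenase of liver, read 533, 655, 633 and 607 TPM in W/W against 257, 218, 237 and 268 TPM in W/F and 172, 291, 222 and 186 TPM in F/F mice (-1.31 ± 0.11 and -1.499 ± 0.11, both called), and the 2 mutant genotypes overlapped. Cyp2j6 was called higher in F/F livers (0.35 ± 0.09), but with median-of-ratios scaling it was lower, at -0.50.

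Cyp2b10, the classical target of CAR, was at 10.6, 9.39, 12.1 and 4.19 TPM in W/W livers on vehicle and at 0.162, 0.109, 0 and 0.098 TPM in F/F livers (-3.12 ± 0.56, adjusted p = 1.0e-05), with no overlap. W/F mice, at 1.77, 4.06, 4.29 and 4.13 TPM, overlapped the lowest W/W mouse and were not called (-1.104 ± 0.56, adjusted p = 0.082), though they were without W/W vehicle replicate 4, with median-of-ratios scaling and in a fit of these 8 libraries alone. Among the members that were higher in mutants, Cyp1b1, a target of the aryl hydrocarbon receptor that is made mostly outside hepatocytes, was at 0.262, 0.434, 0.295 and 0.728 TPM in W/W, 3.84, 2.57, 2.02 and 2.16 TPM in W/F and 8.29, 8.8, 6.96 and 10.5 TPM in F/F mice. The 3 ranges were separate (2.75 ± 0.16, adjusted p = 7.1e-15 in F/F and 1.34 ± 0.16, adjusted p = 3.1e-08 in W/F). No W/W library reached 1 TPM of Cyp1b1, so it passed the filter through mutant livers. Stellate cell markers moved with Cyp1b1: all 5 of the list (Col1a1, Col3a1, Des, Lrat and Dcn) were called higher in F/F livers on vehicle, against 69.3% of all genes. Their summed level was 89.2 to 140.2 TPM in W/W and 932 to 1129 TPM in F/F. Their part in the Cyp1b1 result was not tested. Cyp2s1, an epithelial P450, was at 0.418, 0.226, 0.184 and 0.0995 TPM in W/W and 1.59, 0.769, 0.924 and 1.05 TPM in F/F mice (0.75 ± 0.15, adjusted p = 4.4e-05). Only F/F libraries reached 1 TPM of Cyp2s1. It was tested because it is high in F/F, so its call is not independent of the filter. All 5 bile duct cell markers were called higher in the same comparison, against 69.3% of all genes. Their part in the Cyp2s1 result was not tested. Cyp3a57, named after its values were seen, was listed at 0 in all 4 W/W mice on vehicle and at 2.51 to 3.17 TPM in F/F and 0.991 to 1.68 TPM in W/F mice.

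On chow Cyp2c70 was lower in both mutant genotypes, and Cyp2c29, Cyp2c40 and Cyp2c69 were lower and Cyp2b9 higher in F/F. Between W/F and W/W mice on chow 1 of 45 members was called, a lower one, against 0.198% higher and 0.288% lower of all genes. Between F/F and W/W mice on chow 8 members were higher and 13 lower, against 43% and 3.65%, with medians of -0.15 over the members and 0.29 over all genes. Higher and lower calls were 3 and 21 with median-of-ratios scaling and 8 and 12 with hepatocyte-marker scaling. Between F/F and W/F mice on chow 6 were higher and 17 lower, against 37.9% and 3.43%. Under other scalings the split was 2 and 23 with median-of-ratios scaling and 5 and 15 with hepatocyte-marker scaling. The last count of members called rested on single libraries: it was 14 without W/F chow replicate 1.

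The 1 member called in W/F livers on chow was Cyp2c70. It read 514, 788, 556 and 569 TPM in W/W, 273, 226, 205 and 192 TPM in W/F and 101, 60.2, 128 and 114 TPM in F/F mice on chow, 3 ranges without overlap. Its log2 fold change from W/W was -1.43 ± 0.19, adjusted p = 4.9e-05 in W/F and -2.61 ± 0.19, adjusted p = 2.7e-11 in F/F; in a fit of the compared W/W and W/F libraries alone no member was called on chow. On vehicle Cyp2c70 was at 740.2, 643, 481 and 789, 356, 363, 386 and 346 and 109.6, 125, 129 and 131 TPM in W/W, W/F and F/F mice, and on T0901317 at 606, 409, 513 and 388, 343, 529, 445 and 627 and 349.7, 361, 279.8 and 324 TPM. On T0901317 the W/F range overlapped the W/W range, and F/F differed from W/W by -0.53 ± 0.19, adjusted p = 0.0183, a call lost without F/F T0901317 replicate 3 or W/W T0901317 replicate 1 and with hepatocyte-marker scaling. No 50-base word of Cyp2c70 occurs in another gene.

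Cyp2c40, which hydroxylates arachidonic acid, was at 20.2, 45.1, 4.84 and 5.42 TPM in W/W and 1.33, 1.14, 1.08 and 1.33 TPM in F/F mice on chow (-2.64 ± 0.45, adjusted p = 2.9e-05), with 10.4, 6.94, 2.84 and 1.43 TPM in W/F (-1.36 ± 0.45, adjusted p = 0.384). The W/W values were uneven, with replicates 1 and 2 above the other mice. On T0901317 it was at 14.3, 13.5, 9.79 and 6.26 TPM in W/W, 0.478, 0.594, 0.319 and 0.513 TPM in W/F and 0.358, 0.601, 0.5004 and 1.04 TPM in F/F mice, differences from W/W of -2.96 ± 0.45 and -2.84 ± 0.45, both called and with no overlap. Of the 50-base words of Cyp2c40 60.3% occur in another gene, mainly its neighbours in the cluster, so its level is uncertain. On vehicle the F/F difference of Cyp2c40 was -1.06 ± 0.45, adjusted p = 0.0335, a call lost without replicate 2 or 3 of F/F, without replicate 1 or 4 of W/W, with hepatocyte-marker scaling and with no filter. The female-biased Cyp2b9 showed a large difference on chow, with 0.959, 0, 0 and 0.729 TPM in W/W, 3.002, 1.51, 6.42 and 0 TPM in W/F and 7.84, 30.5, 74.5 and 48.3 TPM in F/F mice (4.56 ± 0.89, adjusted p = 1.5e-04 in F/F). All 4 F/F mice were above all W/W mice, while W/F mice overlapped the W/W range and stayed below F/F (1.12 ± 0.89, adjusted p = 1.0 against W/W). On vehicle the 4 F/F mice had 0.121, 0.0614, 0.122 and 0.496 TPM of Cyp2b9. In W/F mice on vehicle replicate 1 had 0.0407 TPM and the others 14.98 to 24.5 TPM. On T0901317 Cyp2b9 rose in F/F livers (2.25). That call was lost with no filter, with median-of-ratios scaling, with a replicate block and in a fit of the compared libraries alone.

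The stretches before the start sites of Cyp2c70 and Cyp2c40 are shown because both genes were called lower in F/F than in W/W livers on chow, vehicle and T0901317 and both windows hold the word CAAAGTCCA, the form of binding site known for HNF4, a receptor that drives many liver genes. Sequences are from RefSeq on GRCm38.p6, printed 5' to 3' on the strand of the gene, with start sites as RefSeq gives them. Capitals mark CAAAGTCCA and, in Cyp2c70, also AGGTCA, the hexamer known from the sites of many nuclear receptors.
Cyp2c70, chr19:40187334-40187536, minus strand, 250 to 48 bases before the start: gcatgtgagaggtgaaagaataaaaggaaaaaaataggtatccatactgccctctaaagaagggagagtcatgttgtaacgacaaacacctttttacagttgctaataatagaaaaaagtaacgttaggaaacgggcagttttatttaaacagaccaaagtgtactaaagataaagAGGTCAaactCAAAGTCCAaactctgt
Cyp2c40, chr19:39812815-39813064, minus strand, 250 to 1 bases before the start: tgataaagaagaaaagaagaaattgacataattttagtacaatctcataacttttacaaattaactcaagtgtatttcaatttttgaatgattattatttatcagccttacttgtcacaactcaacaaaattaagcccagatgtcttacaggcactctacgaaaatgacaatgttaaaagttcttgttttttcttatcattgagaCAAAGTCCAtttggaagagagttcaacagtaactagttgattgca
Searched on both strands in windows of the same length, CAAAGTCCA was in 10 of the 55 member windows (18.2%), 6 Cyp2c and 4 Cyp3a genes, and in 0.384% of all 32851 promoter windows. AGGTCA was in 16 member windows (29.1%) and 14.0% of all, TATAAA in 25 (45.5%) and 12.4%, TTGCNNAA in 14 (25.5%) and 9.56%, GCGTG in 9 (16.4%) and 28.2%, and TTCNNNGAA in 2 (3.64%) and 7.02%. The windows of neighbouring members are related by descent, 52 members matched the table, and a match is a description of letters only. The 2 printed windows were picked for both the calls and the word, and a link between these was not tested. Cyp3a11 also holds CAAAGTCCA, at bases -109 to -101. It was called higher in F/F than in W/W livers on T0901317 (1.16), a call lost with median-of-ratios scaling and with no filter.

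With the MASH diet Cyp2r1 fell in every genotype, Cyp2c54 and Cyp2f2 fell in the mutants, and Cyp2a5 rose in the mutants. Between vehicle and chow in W/W livers 5 of 45 members were higher and 6 lower, against 2.59% and 10.3% of all genes, with medians of 0.09 and -0.05. The total of 11 became 4 in a fit of these 8 libraries alone and 7 without W/W chow replicate 2. In W/F livers 10 were higher and 21 lower, against 52.4% and 8.53%, with medians of -0.14 over the members and 0.39 over all genes. Rescaling gave 6 and 23 with median-of-ratios scaling and 12 and 17 with hepatocyte-marker scaling. In F/F livers 8 were higher and 21 lower, against 46.5% and 9.27%, with medians of -0.51 and 0.32. Higher against lower calls were 4 and 26 with median-of-ratios scaling and 12 and 15 with hepatocyte-marker scaling.

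Cyp2r1, a vitamin D 25-hydroxylase, was lower on the diet in every genotype: 21.7, 23.1, 18.1 and 23.02 TPM on chow and 10.1, 14.02, 11.7 and 11.4 TPM on vehicle in W/W mice, with no overlap. Its log2 fold change was -0.81 ± 0.11, adjusted p = 1.9e-05 for W/W livers, -0.79 ± 0.11, adjusted p = 6.6e-07 for W/F livers and -1.02 ± 0.11, adjusted p = 1.5e-08 for F/F livers. Cyp2u1, a fatty acid hydroxylase, read 28.8, 21.7, 29.1 and 26.3 TPM on chow and 4.66, 2.29, 1.62 and 2.43 TPM on vehicle in W/F mice (-2.92 ± 0.33, adjusted p = 5.8e-09) and was not called in W/W (-0.73 ± 0.33, adjusted p = 0.1496). Cyp2e1 was at 7045, 3855, 5419 and 6390.1 TPM on chow in W/W mice, below all 4 on vehicle (0.81 ± 0.25, adjusted p = 0.0269), while it fell in W/F (-1.43 ± 0.25, adjusted p = 1.0e-05) and F/F livers (-1.82 ± 0.25, adjusted p = 3.8e-07). The W/W call for Cyp2e1 was lost without any 1 of W/W chow replicates 2 and 3 and W/W vehicle replicates 1 and 3, with no filter (adjusted p = 0.0655) and in a limma fit of these 8 libraries alone (0.0650). Cyp2c54 was not called in W/W (0.29 ± 0.30, adjusted p = 0.622) and fell in W/F (-3.41 ± 0.30) and F/F livers (-5.04 ± 0.30), where chow mice read 186, 246, 247 and 211 TPM.

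Among the Cyp2d genes 3 of 7 members rose with the diet in W/W livers and none fell, while 6 fell in W/F and 4 in F/F livers and none rose. Over all genes 2.59% rose and 10.3% fell in W/W, 52.4% and 8.53% in W/F, and 46.5% and 9.27% in F/F. With hepatocyte-marker scaling 3 Cyp2d genes fell in W/F, and in F/F 2 rose and 2 fell. Cyp2d40 was among the risers in W/W (0.78 ± 0.20, adjusted p = 0.00849), a call lost without W/W chow replicate 2 and in a fit of these 8 libraries alone, and fell in W/F (-1.77 ± 0.20) and F/F (-2.02 ± 0.20). Cyp2d26 fell in W/F by 0.28 and in F/F by 0.31 on the log2 scale, but with hepatocyte-marker scaling the values were 0.012 and 0.33. Cyp2b10 rose with the diet in W/W livers, from 1.34, 0, 0 and 4.38 to 10.6, 9.39, 12.1 and 4.19 TPM (2.33 ± 0.56, adjusted p = 0.00574), a call lost in a fit of these 8 libraries alone. Cyp2b9 fell in F/F livers (-4.75 ± 0.89, adjusted p = 4.1e-05). Cyp2a5 rose in W/F, from 640.4, 663, 821 and 597 to 1848, 2578, 1796 and 1998 TPM (1.59 ± 0.37, adjusted p = 4.8e-04), and in F/F livers (1.61 ± 0.37, adjusted p = 5.0e-04, 1.06 without F/F chow replicate 2), and was not called in W/W (0.18 ± 0.37, adjusted p = 0.841). Cyp2c55 fell in W/W (-1.35 ± 0.32, not called in a fit of these 8 libraries alone) and rose in W/F (1.61 ± 0.32) and F/F (0.82 ± 0.32). The F/F call of Cyp2c55 was lost without F/F chow replicate 1 or 2 (0.46 without replicate 2), without F/F vehicle replicate 1 or 4, with median-of-ratios scaling, with no filter and in a fit of these 8 libraries alone.

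The diet response itself was also compared between genotypes. Set against the W/W response, the W/F response was higher for 8 and lower for 15 of 45 members, against 49.5% and 5.13% of all genes (split 4 and 23 with median-of-ratios scaling and 11 and 14 with hepatocyte-marker scaling). The F/F response was higher for 8 and lower for 20, against 41.5% and 4.54% (split 4 and 24 with median-of-ratios scaling and 10 and 18 with hepatocyte-marker scaling). For Cyp2c54 the F/F response fell short of the W/W response by 5.32 ± 0.43 on the log2 scale, and for Cyp2e1 by 2.64 ± 0.35. These contrasts share the W/W mice.

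On T0901317 Cyp2c54, Cyp2c29, Cyp2e1 and Cyp2f2 rose in both mutant genotypes and were not called in W/W livers. Though not called, the W/W mean of Cyp2c29 was higher on T0901317, at 1886 TPM against 1214 TPM on vehicle. Cyp2d9 and Cyp2c23 fell in W/W livers and rose in both mutant genotypes. In W/W livers 9 of 45 members were higher and 7 lower than on vehicle, against 7.87% and 2.91% of all genes, with medians of 0.02 and 0.06. The other scalings gave 7 and 8 with median-of-ratios scaling and 13 and 5 with hepatocyte-marker scaling. In W/F livers 22 were higher and 7 lower, against 6.59% and 59.3%, with medians of 0.39 over the members and -0.49 over all genes. The split became 29 and 3 with median-of-ratios scaling and 20 and 9 with hepatocyte-marker scaling. In F/F livers 30 were higher and 2 lower, against 3.95% and 31.2%, with medians of 0.87 and -0.24. Calls split into 32 and 2 with median-of-ratios scaling and 23 and 4 with hepatocyte-marker scaling. Hepatocyte markers rose alongside in F/F livers, where 6 of 9 were called higher and 1 lower, with summed levels of 57821 to 65047 TPM on vehicle and 74122 to 95108 TPM on T0901317. Bile duct cell markers summed to 2908 to 3554 TPM on vehicle and 756 to 1696 TPM on T0901317 in the same groups. The part of either in the P450 counts was not tested.

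Cyp2c54 read 484, 362, 479.7 and 583 TPM in W/F and 62.2, 88.8, 179 and 80.8 TPM in F/F mice on T0901317, above every vehicle mouse of the same genotype. The rise was 3.88 ± 0.30, adjusted p = 1.8e-11 in W/F and 3.82 ± 0.30, adjusted p = 1.5e-10 in F/F, and in W/W livers the difference was not called (-0.42 ± 0.30, adjusted p = 0.458). The rise exceeded the W/W response by 4.24 ± 0.43, adjusted p = 3.2e-08 in F/F. Cyp2c29 rose by 2.63 ± 0.26 in W/F and 3.71 ± 0.26 in F/F, and Cyp2e1 rose by 2.12 ± 0.25 and 1.29 ± 0.25. Cyp2e1 then stood at 12186, 8866, 10371 and 11367 TPM in W/F and 2586, 3632, 6058 and 2978 TPM in F/F mice, and its W/W value went from 9694, 9343, 10627 and 9349.7 to 7531, 6469, 7669.9 and 8264 TPM without a call (-0.39 ± 0.25, adjusted p = 0.386). The Cyp2e1 response was larger in W/F than in W/W livers by 2.51 ± 0.35, adjusted p = 7.9e-07. Cyp2f2 rose by 1.82 ± 0.23, adjusted p = 7.7e-08 in W/F and 2.56 ± 0.23, adjusted p = 2.1e-09 in F/F, and F/F mice at 338, 332, 574 and 625 TPM stayed below W/W mice at 908, 774, 963 and 849.7 TPM.

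The Cyp2d genes split by genotype: on T0901317 5 of 7 fell and none rose in W/W livers, 6 rose and none fell in W/F, and 5 rose and none fell in F/F. Over all genes 2.91% fell and 7.87% rose in W/W, 59.3% and 6.59% in W/F, and 31.2% and 3.95% in F/F. With hepatocyte-marker scaling the Cyp2d counts were 3 falling in W/W, 5 rising in W/F and 1 rising in F/F, where Cyp2d22, outside the naming rule, turned from 0.33 to -0.024. Compared with W/W, the W/F response was called higher for 6 of 7 Cyp2d genes and the F/F response for 7 of 7 (6 and 4 with hepatocyte-marker scaling). These responses were higher for 5.27% and 3.29% of all genes. Cyp2d9 went from 2484, 2008, 1828 and 2419.7 to 1548, 579, 1288 and 1353 TPM in W/W mice (-0.95 ± 0.24, adjusted p = 0.00795), from 1079, 818, 562 and 796 to 2361, 1784, 2812 and 2859 TPM in W/F (1.605 ± 0.24, adjusted p = 1.3e-06) and from 624, 461, 367 and 429 to 713, 852, 885 and 942 TPM in F/F (0.87 ± 0.24, adjusted p = 0.00716). The W/W call rested on W/W T0901317 replicate 2, without which it was lost, as it was in a fit of these 8 libraries alone, and the F/F call was lost with hepatocyte-marker scaling. The W/F and F/F responses of Cyp2d9 exceeded the W/W response by 2.56 ± 0.34, adjusted p = 4.1e-07 and 1.82 ± 0.34, adjusted p = 2.7e-04. Cyp2u1 also moved in opposite directions, falling in W/W livers from 10.3, 12.8, 14.6 and 19.5 to 6.48, 4.33, 4.595 and 3.95 TPM (-1.38 ± 0.33, adjusted p = 0.00452) and rising in W/F (1.06 ± 0.33, adjusted p = 0.00539), a difference of 2.43 ± 0.46, adjusted p = 5.2e-05. Cyp2c23 did likewise, with -1.12 ± 0.18 for W/W livers, 1.25 ± 0.18 for W/F livers and 1.59 ± 0.18 for F/F livers, all called.

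Of 7 tested Cyp3a members on T0901317, 2 rose in W/W livers, 4 rose and 1 fell in W/F, and 5 rose and 1 fell in F/F. Over all genes 7.87% rose and 2.91% fell in W/W, 6.59% and 59.3% in W/F, and 3.95% and 31.2% in F/F. With median-of-ratios scaling 1 Cyp3a member rose in W/W, 6 rose in W/F and 5 rose in F/F, and with hepatocyte-marker scaling 3, 4 and 4 did, with 1 lower in each mutant genotype under both. Cyp3a11 was at 1126, 1544, 1388 and 1065 TPM on vehicle and 2921, 2869, 3168 and 2784 TPM on T0901317 in W/W mice, at 3483, 3532, 3089.8 and 3432 and 6791, 6443, 7582 and 7304 TPM in W/F, and at 2132, 2070.2, 1964 and 2162 and 4866, 5491, 8393 and 8191 TPM in F/F. No treated mouse overlapped a vehicle mouse of its genotype. The log2 fold change was 1.65 ± 0.47, adjusted p = 0.00852 in F/F, where it was called, 1.21 ± 0.47, adjusted p = 0.104 in W/W and 1.05 ± 0.47, adjusted p = 0.0508 in W/F. In fits of the compared libraries alone the adjusted p was 0.00195 in W/W and 0.000185 in W/F. The W/W difference was also called with hepatocyte-marker scaling, and the W/F difference with median-of-ratios scaling, a filter of 5 TPM and the replicate block. The chow libraries spread far more, at 2157, 213, 1798 and 2114 TPM in W/W and 653, 3491, 4056 and 2519 TPM in W/F mice, and they enter the shared estimate of spread. Cyp3a59 rose in W/W from 20.05, 25.7, 28.3 and 13.5 to 85.9, 129, 87.1 and 128 TPM (2.27 ± 0.33, adjusted p = 1.0e-05), in W/F (1.600 ± 0.33, adjusted p = 9.4e-05) and in F/F (2.38 ± 0.33, adjusted p = 5.4e-06). Cyp3a25 rose by 0.71 ± 0.23, adjusted p = 0.0435 in W/W, a call lost on leaving out any of the 8 libraries, with median-of-ratios scaling and with no filter, by 1.15 ± 0.23, adjusted p = 7.3e-05 in W/F and by 1.56 ± 0.23, adjusted p = 1.6e-05 in F/F. Between 26.8% and 30.0% of the 50-base words of Cyp3a25 and Cyp3a59 occur in other genes, mostly shared between these 2, so the split between them is uncertain. Cyp3a13, which shares none, was called in F/F alone among the T0901317 tests (0.51 ± 0.19, adjusted p = 0.0396), a call lost without any 1 of F/F T0901317 replicates 2 and 3 and F/F vehicle replicates 2 and 3. With hepatocyte-marker scaling the Cyp3a13 value was 0.15 (adjusted p = 0.506), and with no filter the adjusted p was 0.0676, so neither limma fit called it.

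The windows of Cyp3a11 and Cyp3a59 are shown for AGGTCA, the hexamer from which the direct repeats bound by PXR are built. T0901317 is known to activate PXR besides LXR, and a part of PXR in these results was not tested. Capitals mark AGGTCA on either strand and, in Cyp3a11, also TATAAA. RefSeq places the Cyp3a11 start downstream of the first exon of a longer transcript model, so the printed stretch ends there. The CAAAGTCCA of Cyp3a11, at bases -109 to -101, lies beyond that end.
Cyp3a11, chr5:145879965-145880104, minus strand, 250 to 111 bases before the start: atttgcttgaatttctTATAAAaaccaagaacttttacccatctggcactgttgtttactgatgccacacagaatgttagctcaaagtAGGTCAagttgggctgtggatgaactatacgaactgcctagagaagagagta
Cyp3a59, chr5:146079008-146079256, plus strand, 250 to 2 bases before the start: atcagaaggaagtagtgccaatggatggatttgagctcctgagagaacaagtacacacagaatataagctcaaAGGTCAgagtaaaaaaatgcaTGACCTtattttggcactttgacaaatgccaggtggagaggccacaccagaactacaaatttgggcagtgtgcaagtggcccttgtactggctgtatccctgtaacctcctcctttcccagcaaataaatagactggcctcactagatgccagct
Cyp3a11 held 1 AGGTCA, at bases -162 to -157 from the start, and Cyp3a59 held one at -177 to -172 and one on the other strand at -156 to -151. Neither window thus held AGGTCA as a direct repeat, and AGGTCA was in 14.0% of all promoter windows. These are letters found in the windows, and binding was not measured.

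**Figure D4:**
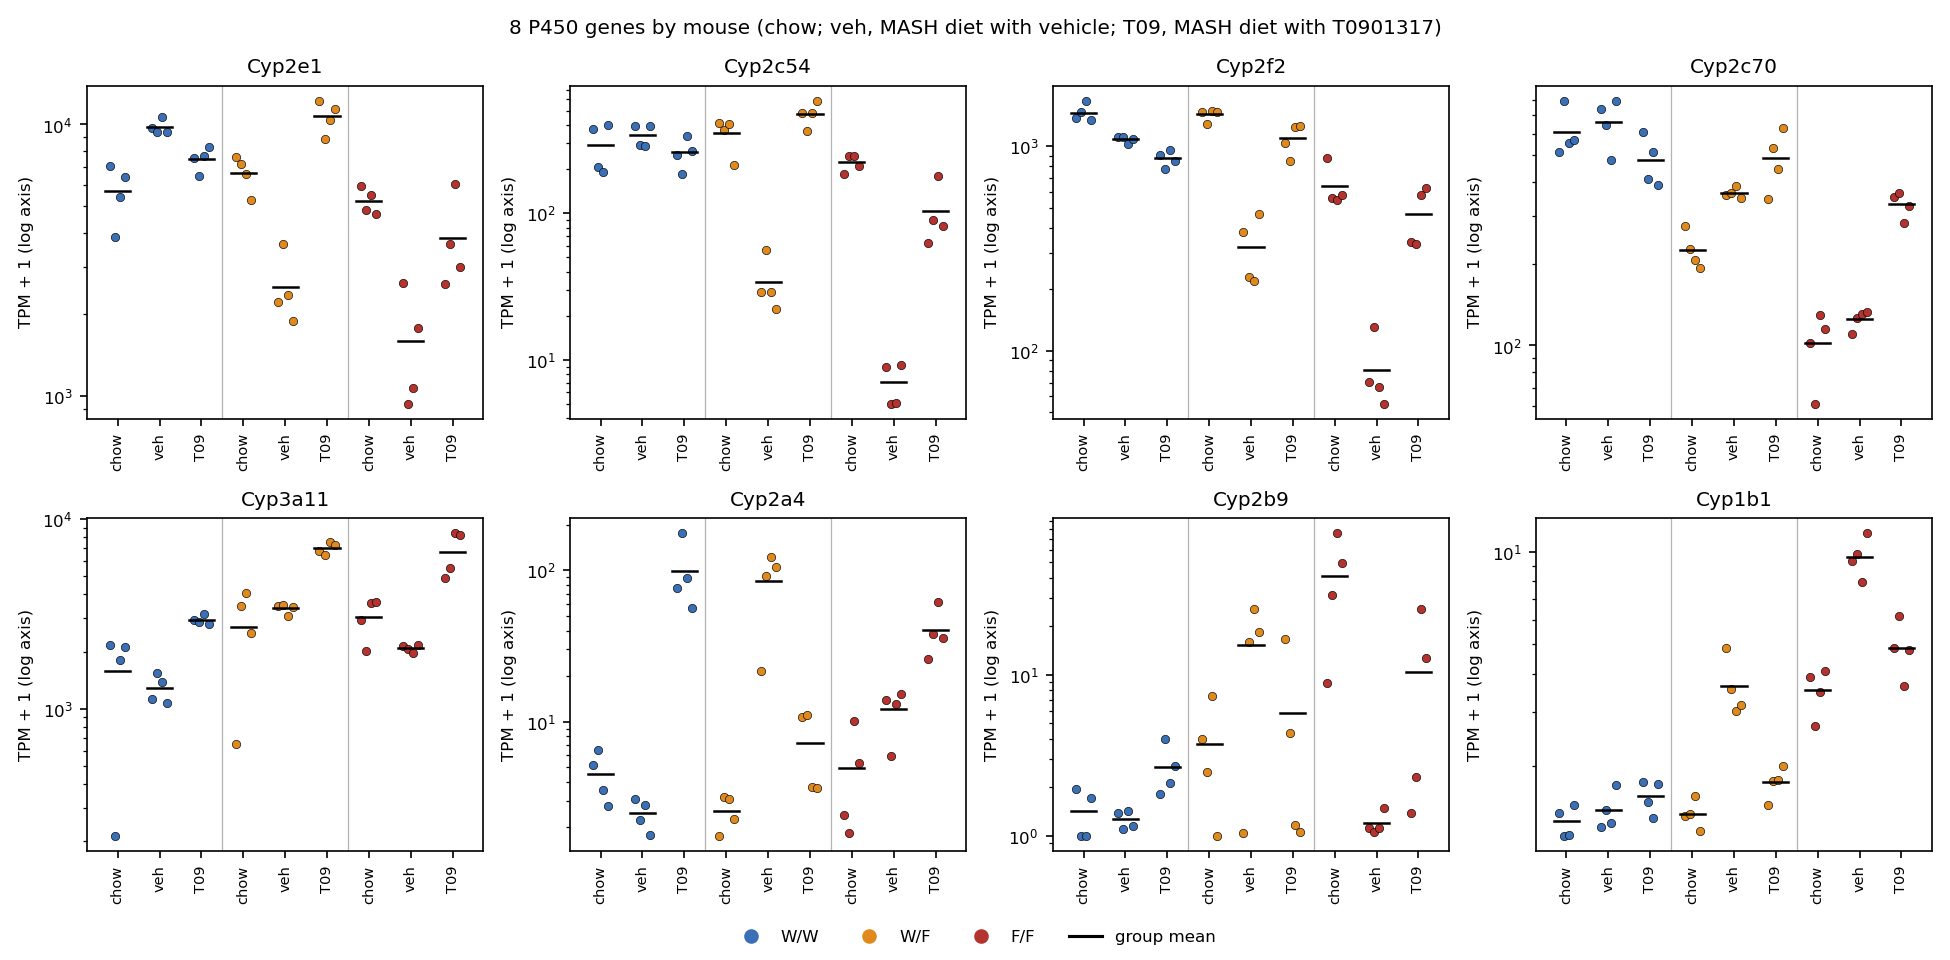
TPM + 1 (log axis) of 8 P450 genes in each mouse, by genotype (blue W/W, orange W/F, red F/F) and treatment, with black lines at group means. Cyp2e1, Cyp2c54 and Cyp2f2 dip in W/F and F/F mice on vehicle, Cyp2c70 is lowest in F/F mice on chow and on vehicle, Cyp3a11 is highest on T0901317 in each genotype, and Cyp2a4 is high in W/W mice on T0901317 and W/F mice on vehicle.

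Cyp2a4, a steroid hydroxylase known as female-biased, had the largest difference from the W/W response to T0901317 of all tested members in W/F livers. In W/W mice it was at 2.08, 1.22, 1.796 and 0.791 TPM on vehicle and 75.5, 174, 87.7 and 55.3 TPM on T0901317 (5.22 ± 0.51, adjusted p = 9.8e-09). In W/F mice it was at 20.6, 90.8, 122 and 104 TPM on vehicle and 9.67, 10.1, 2.68 and 2.63 TPM on T0901317 (-3.497 ± 0.51, adjusted p = 6.6e-07). In F/F mice it was at 12.95, 4.97, 12.01 and 14.2 TPM on vehicle and 24.98, 36.8, 60.4 and 34.7 TPM on T0901317 (1.76 ± 0.51, adjusted p = 0.00876). The treated and vehicle ranges were separate in each genotype, with a rise in W/W and F/F and a fall in W/F. The W/F response differed from the W/W response by -8.72 ± 0.71, adjusted p = 1.5e-10 and the F/F response by -3.47 ± 0.71, adjusted p = 7.1e-04. On chow Cyp2a4 was at 4.19, 5.54, 2.52 and 1.75, 0.758, 2.17, 2.07 and 1.27 and 1.42, 0.844, 9.04 and 4.31 TPM in W/W, W/F and F/F mice. Cyp2a22, another Cyp2a gene of low level, also rose in W/W, from 2.58, 4.85, 3.01 and 1.397 to 14.7, 60.9, 21.5 and 30.8 TPM (2.94 ± 0.41, adjusted p = 5.8e-06).

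Cyp2a4 and Cyp2a5 are close copies on chromosome 7 with other P450 genes between them, so their sequences bear on whether the 2 levels can be told apart. Their coding sequences of 1482 bases differ at 23 positions (98.4% identity), and 38.8% of the 50-base words of Cyp2a4 and 37.0% of those of Cyp2a5 occur in another gene. The coding bases 580 to 669 hold 5 of the differences, in capitals, read from GENCODE transcripts on GRCm38.
Cyp2a4, chr7:26309014-26309088 and chr7:26310706-26310720, plus strand, exons 4 and 5 of 9: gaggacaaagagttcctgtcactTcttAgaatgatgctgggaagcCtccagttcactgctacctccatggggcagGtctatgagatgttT
Cyp2a5, chr7:26837177-26837251 and chr7:26838868-26838882, plus strand, exons 4 and 5 of 9: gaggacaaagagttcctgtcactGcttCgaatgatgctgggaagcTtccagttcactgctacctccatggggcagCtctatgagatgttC
Counted from coding base 1, with the base of Cyp2a4 first, they are T603G, A607C, C625T, G655C and T669C, and C625T is the first base of codon 209, which mutagenesis is known to link to the preference for steroid or coumarin. Their promoters differ little as well. RefSeq windows from 250 to 35 bases before the start, with the bases that differ in capitals, read as follows, and the windows are offset by 1 base, so the first base of the Cyp2a4 window has no partner.
Cyp2a4, chr7:26306942-26307157, plus strand: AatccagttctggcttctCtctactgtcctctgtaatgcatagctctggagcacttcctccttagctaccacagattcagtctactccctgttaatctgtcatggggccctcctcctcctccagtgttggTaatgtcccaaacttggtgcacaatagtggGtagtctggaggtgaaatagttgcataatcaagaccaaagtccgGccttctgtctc
Cyp2a5, chr7:26835089-26835304, plus strand: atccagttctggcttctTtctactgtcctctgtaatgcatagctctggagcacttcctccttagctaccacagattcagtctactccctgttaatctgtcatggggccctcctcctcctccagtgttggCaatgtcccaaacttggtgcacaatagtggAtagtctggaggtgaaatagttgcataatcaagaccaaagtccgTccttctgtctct
Both windows hold TTGCNNAA, and the other capitals mark 4 substitutions between the 2 genes.

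Despite this likeness the 2 genes were recorded at unlike levels, and in W/W and W/F livers T0901317 gave a call for Cyp2a4 and none for Cyp2a5. Cyp2a5 was at 902, 681, 641 and 819 TPM on vehicle and 991, 1183, 989 and 1422 TPM on T0901317 in W/W mice (0.59 ± 0.37, adjusted p = 0.378), and at 1848, 2578, 1796 and 1998 and 1737, 3083, 1456 and 1471 TPM in W/F (-0.14 ± 0.37, adjusted p = 0.752). Neither was called, although in W/W every treated mouse was above every vehicle mouse for Cyp2a5. In F/F livers Cyp2a5 rose (1.26 ± 0.37, adjusted p = 0.0106), as Cyp2a4 did. As a percentage of Cyp2a5 in the same mouse, Cyp2a4 was 0.0966% to 0.280% in W/W on vehicle and 3.89% to 14.7% on T0901317. In W/F it was 1.12% to 6.77% on vehicle and 0.179% to 0.557% on T0901317, and in F/F it was 0.7001% to 1.476% on vehicle and 1.196% to 2.05% on T0901317, ranges that overlapped. The percentage thus differed between groups without overlap for each pair of vehicle and T0901317 in W/W and in W/F, and how reads were shared between the 2 genes was not tested.

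The T0901317 responses of all tested members were compared too. Against the W/W response the T0901317 response was higher for 18 and lower for 10 of 45 members in W/F, against 5.27% and 53.2% of all genes (split 22 and 6 with median-of-ratios scaling and 16 and 12 with hepatocyte-marker scaling). In F/F it was higher for 22 and lower for 7, against 3.29% and 27.2% (split 24 and 4 with median-of-ratios scaling and 15 and 8 with hepatocyte-marker scaling). Cyp2c55 rose in W/W livers to 31.7, 48.95, 33.98 and 30.4 TPM (2.89 ± 0.32, adjusted p = 1.1e-07) and was not called in W/F (-0.25 ± 0.32, adjusted p = 0.499), where vehicle mice were already at that level, a difference of -3.14 ± 0.45, adjusted p = 1.1e-06. In F/F mice it rose to 87.7, 116, 121 and 190.2 TPM (1.51 ± 0.32, adjusted p = 7.7e-04). Cyp2b10 rose in W/F (1.97 ± 0.56, adjusted p = 0.00285) and F/F livers (3.49 ± 0.56, adjusted p = 4.6e-05), reaching 4.49, 3.83, 21.99 and 35.6 TPM in F/F. Within the treated F/F group replicates 3 and 4 had the higher Cyp2b10, Cyp3a11 and Cyp1a2 (286, 295, 642 and 589 TPM), and the same 2 mice had the lower bile duct marker sums, 1696, 1368, 756 and 795 TPM in replicate order. The link was not tested. Cyp1b1 fell on T0901317 in W/F (-1.03 ± 0.16, adjusted p = 3.0e-06) and F/F livers, from 8.29, 8.8, 6.96 and 10.5 to 3.84, 5.18, 2.63 and 3.77 TPM (-1.001 ± 0.16, adjusted p = 5.5e-05). Of the 8 pericentral members none was called in W/W, 5 rose in W/F and all 8 rose in F/F, against 7.87%, 6.59% and 3.95% of all genes. The numbers that rose were 0, 7 and 8 with median-of-ratios scaling and 2, 5 and 8 with hepatocyte-marker scaling.

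Genotypes were also compared on T0901317. Between W/F and W/W mice 8 of 45 members were higher and 8 lower, against 3.65% and 6.23% of all genes (split 6 and 9 with median-of-ratios scaling and 4 and 10 with hepatocyte-marker scaling). Between F/F and W/W mice 12 were higher and 14 lower, against 56.3% and 6.96% (split 5 and 28 with median-of-ratios scaling and 12 and 12 with hepatocyte-marker scaling). Between F/F and W/F mice 9 were higher and 17 lower, against 58.5% and 4.08% (split 5 and 24 with median-of-ratios scaling and 11 and 14 with hepatocyte-marker scaling). Cyp2c54 was still lower in F/F than in W/W livers (-1.41 ± 0.30, adjusted p = 1.8e-04), Cyp2e1 differed by -1.05 ± 0.25, adjusted p = 5.5e-04 and Cyp2f2 by -0.96 ± 0.23, adjusted p = 6.4e-04. Cyp3a11 differed between W/F and W/W by 1.26 ± 0.47, adjusted p = 0.0931, which is not a call although the mice did not overlap, and it was called in a fit of these 8 libraries alone. In all, 5 of 7 Cyp3a members were higher in F/F than in W/W livers on T0901317 and none lower, against 56.3% and 6.96% of all genes. With median-of-ratios scaling 1 Cyp3a member was higher and 1 lower.

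Genes that serve or regulate P450s were taken as a list of 23, of which 21 were tested. In F/F against W/W livers on vehicle 7 were higher and 5 lower, against 69.3% and 7.13% of all genes, but 2 and 13 with median-of-ratios scaling and 14 and 1 with hepatocyte-marker scaling. On T0901317 against vehicle 3 rose and 2 fell in W/W, against 7.87% and 2.91% of all genes. In W/F 6 rose and 5 fell, against 6.59% and 59.3%, and in F/F 5 rose and 1 fell, against 3.95% and 31.2%. The W/W, W/F and F/F splits on T0901317 were 3 and 3, 14 and 3, and 6 and 0 with median-of-ratios scaling, and 5 and 0, 4 and 7, and 0 and 9 with hepatocyte-marker scaling, so no direction is given for the list. Por, the reductase that feeds electrons to all these enzymes, rose with the diet in W/W (1.16 ± 0.22, adjusted p = 7.3e-04), W/F (1.21 ± 0.22) and F/F livers (1.79 ± 0.22), where its means went from 104 to 352 TPM. In F/F mice on vehicle Por thus stood near the W/W mean of 408 TPM, while the P450 sum was lower. This likeness is one of TPM only. Median-of-ratios factors, by which libraries are divided, were 1.42 to 1.47 in F/F and 0.689 to 0.847 in W/W mice on vehicle. Hepatocyte-marker factors differed the other way, at 0.713 to 0.737 and 1.003 to 1.22. Nr1i2, which encodes PXR, rose with the diet (0.46, 0.41 and 0.63 in W/W, W/F and F/F) and again on T0901317 (0.398, 0.41 and 0.33), each called. The W/F diet value of Nr1i2 turned to -0.088 with median-of-ratios scaling and its F/F T0901317 value to -0.023 with hepatocyte-marker scaling, and the T0901317 calls were lost without W/W vehicle replicate 1 or 4 in W/W and without F/F T0901317 replicate 1 or 3 in F/F. Its T0901317 call in W/F was lost with hepatocyte-marker scaling (0.25, adjusted p = 0.0649), and its diet call in W/W in a limma fit of these 8 libraries alone (adjusted p = 0.0906). Nr1i3, which encodes CAR, was lower in F/F livers on vehicle (-0.97 ± 0.31, adjusted p = 0.005095), a call lost with hepatocyte-marker scaling. Ahr, the aryl hydrocarbon receptor, was higher in F/F than in W/W livers in all 3 states (1.100, 1.27 and 1.100 on chow, vehicle and T0901317, each called). Its target Cyp1a1 stayed at 0.859 to 1.56 TPM in F/F and 0.333 to 1.55 TPM in W/W mice on vehicle (0.11 ± 0.21, adjusted p = 0.627), without a call, though hepatocyte-marker scaling called it higher and median-of-ratios scaling put it at -0.29. Ghr, the growth hormone receptor upstream of sex-biased P450s, was lower on vehicle in F/F (-1.64 ± 0.14, adjusted p = 1.2e-11) and W/F livers (-1.19 ± 0.14, adjusted p = 1.8e-08). Hmox1, which breaks down haem, was higher on vehicle in W/F (2.93 ± 0.31) and F/F livers (2.64 ± 0.31), both called. In the fit without rescaling Hnf4a was not called in any comparison of 2 groups. Its values with the other scalings are not given here, so it is not described as unchanged.

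The 13 tested members without values so far were Cyp2a12, Cyp2c38, Cyp2c39, Cyp2c67, Cyp2c68, Cyp2c69, Cyp2d10, Cyp2d11, Cyp2d12, Cyp2g1, Cyp2j9, Cyp3a16 and Cyp3a44. The genes at the ends of each range are named after their values were seen. In F/F against W/W livers on chow 3 were higher and 3 lower, against 43% and 3.65% of all genes, with log2 fold changes from -2.36 (Cyp2c69) to 0.92 (Cyp2c38). In the same comparison on vehicle 0 were higher and 5 lower, against 69.3% and 7.13% of all genes, with log2 fold changes from -1.64 (Cyp2c67) to 0.33 (Cyp2j9). On T0901317 against vehicle in F/F livers 5 were higher and 0 lower, against 3.95% and 31.2% of all genes, with log2 fold changes from -0.28 (Cyp2c69) to 1.28 (Cyp2g1). Cyp2c69, whose transcript shares 54.3% of its 50-base words with other genes, was at 9.97, 28.6, 1.93 and 1.96 TPM in W/W and 0.604, 0.345, 0.329 and 0.429 TPM in F/F mice on chow (-2.36 ± 0.43, adjusted p = 7.1e-05), and as for its neighbour Cyp2c40 the first 2 W/W mice were the highest.

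The female-biased list held 8 members, of which 5 were tested. In F/F against W/W livers on chow 2 of the 5 were higher and 1 lower, against 43% and 3.65% of all genes, and with median-of-ratios scaling 1 was higher and 1 lower. Cyp2b9 (4.56) was among the higher ones, and the lower one was Cyp2c69 (-2.36). On T0901317 against vehicle in F/F livers 3 of the 5 rose, against 3.95% of all genes, and 2 did with median-of-ratios scaling. The rise of Cyp2b9 was among them, a call that several alternatives lost. Of the tested genes of the list, Cyp3a16 and Cyp3a44 were near the floor, at most 1.65 and 3.48 TPM in any library. Cyp2b13, a female-biased member that missed the filter, was at most 1.43 TPM in any of the 36 male livers. The male-biased Cyp2d9 did not differ by a call between F/F and W/W livers on chow (-0.200 ± 0.24, adjusted p = 0.5195), where Cyp2b9 was called higher and Cyp2c69 lower in F/F.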

How the data were processed

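Liver polyA RNA of 36 mice in 9 groups of 4 was analysed, with genotype, treatment and replicate number taken from the sample labels. The authors deposited 1 table of TPM for 49315 genes. Per the submitters' processing notes, Trimmomatic 0.36, STAR 2.5.2b, featureCounts and Subread 1.5.2 were used on build GRCm38 (mm10); how TPM were formed and which annotation was used is not given in the sources used here. Read depth was recovered from the steps between low TPM values and GENCODE M21 exon lengths, which put 93.0% to 95.0% of low values at a whole read count (tolerance 0.1).

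The scale of analysis was log2(TPM + 1), over 16638 genes that reached 1 TPM in 4 or more libraries. limma 3.58.1 in R 4.3.3 was fitted to all 36 libraries with 1 mean per group and variances that follow the mean, and 19 contrasts were tested two-sided with Benjamini-Hochberg adjustment over all genes, threshold 0.05. The design has no replicate block, since on average livers with the same number hardly deviated together (mean r = 0.0165 over 144 pairs of libraries in different groups, against -0.00536 for other numbers, an account of these libraries only). The fit was tested on simulated data. Nothing states more than that libraries are separate livers, so p-values measure the spread between these mice.

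The P450 members, the partner, zonation, sex and cell type lists and the tests were chosen with earlier results of these data known. Named genes were 20 members given at the outset plus, in each comparison of 2 groups, the 3 members with the largest and the 3 with the smallest called log2 fold change, no overlap between the mice and 5 TPM or more as the higher mean; a few others are marked as chosen after their values were seen. The symbol of 1 of the 10 hepatocyte markers was not found. Alternatives were a pseudocount of 0.1, a filter of 5 TPM, no filter, both scalings, a replicate block, only the libraries compared, and leaving out each library. Sequences come from the RefSeq promoter table (GRCm38.p6) and GENCODE M21 transcripts and were searched with Python 3.11.15. Shared sequence is the percentage of a gene's 50-base transcript words found in another gene. No protein sequences were used here.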

Additional observations from a re-analysis of the deposited data

Results flagged for a closer look

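Among the 279 sets of 4 mice examined for the named genes (each with a mean of at least 1 TPM), 19 held 1 mouse whose gap to the rest, as a part of the range, passed Dixon's 95% critical value for 4 samples; chance flags about 1 in 20 sets. On chow, low values were Cyp1a2 in W/W replicate 2 at 544 TPM (others 876 to 929), Cyp3a11 in the same W/W mouse at 213 TPM (others 1798 to 2157), Cyp2c54 in W/F replicate 4 at 214 TPM (others 368 to 410.4), Cyp2c68 in the same W/F mouse at 119 TPM (others 179.5 to 191), Cyp2f2 in W/F replicate 2 at 1283 TPM (others 1467 to 1494) and Cyp3a25 in F/F replicate 2 at 294 TPM (others 612 to 658). High values on chow were Cyp3a13 in F/F replicate 2 at 194 TPM (others 86.9 to 96.3), Cyp2d9 in F/F replicate 1 at 2301 TPM (others 1266 to 1302), Cyp2f2 in the same F/F mouse at 877 TPM (others 547 to 576) and Cyp2c37 in F/F replicate 3 at 177 TPM (others 121 to 123).

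On vehicle, W/F replicate 1 was low for 3 genes: Cyp2a4 at 20.6 TPM (others 90.8 to 122), Cyp2b10 at 1.77 TPM (others 4.06 to 4.29) and Cyp2b9 at 0.0407 TPM (others 14.98 to 24.5). In F/F mice on vehicle Cyp2a4 was low in replicate 2 at 4.97 TPM (others 12.0 to 14.2) and Cyp2j9 in replicate 3 at 6.29 TPM (others 8.56 to 9.10). On T0901317, Cyp2a22 was high in F/F replicate 3 at 36.1 TPM (others 11.4 to 12.6), Cyp2b10 in W/W replicate 2 at 23.4 TPM (others 11.5 to 12.4) and Cyp2c55 in W/F replicate 3 at 45.6 TPM (others 29.2 to 31.0), and Cyp2d10 was low in W/F replicate 2 at 988 TPM (others 1228 to 1275).

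Responses that differed between genotypes were tested as interaction terms in the limma model. The T0901317 response differed from that of W/W for 28 members in W/F, 18 higher and 10 lower, against 5.27% and 53.2% of all genes. In F/F it differed for 29, 22 higher and 7 lower, against 3.29% and 27.2%. The diet response differed for 23 in W/F, 8 higher and 15 lower, against 49.5% and 5.13%. In F/F it differed for 28, 8 higher and 20 lower, against 41.5% and 4.54%. On the log2 scale the T0901317 response of Cyp2a4 differed by -8.72 in W/F and -3.47 in F/F, that of Cyp2c55 by -3.14 in W/F, that of Cyp2c54 by 4.24 in F/F, that of Cyp2e1 by 2.51 in W/F, that of Cyp2d9 by 2.56 in W/F and 1.82 in F/F, and that of Cyp2u1 by 2.43 in W/F. The diet response differed in F/F by -5.32 for Cyp2c54 and by -2.64 for Cyp2e1.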

How the results depend on the processing

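The 19 counts of members called stayed within 1.5 times of the reported value with a pseudocount of 0.1, either filter, either scaling and the replicate block. In fits of only the libraries compared, the count for diet in W/W went from 11 to 4, for W/F compared with W/W on chow from 1 to 0, and for F/F against W/F on chow from 23 to 14. Leaving out 1 library gave 7 to 11 for diet in W/W (7 without W/W chow replicate 2) and 14 to 22 for F/F against W/F on chow (14 without W/F chow replicate 1). Smaller fits have fewer degrees of freedom; the cause was not tested.

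Of 393 single values, 273 kept direction and call under every alternative, and 6139 of 6574 recomputed values did. Median-of-ratios scaling turned the sign for Cyp2j6 in F/F against W/F on T0901317 (-0.24), F/F against W/W on vehicle (-0.50), diet in F/F (-0.12), T0901317 in W/F (0.33), the F/F diet response against W/W (-0.092) and the W/F T0901317 response (0.0034), for Cyp2j9 in W/F against W/W on vehicle (-0.040) and for Nr1i2 by diet in W/F (-0.088). Hepatocyte-marker scaling turned Cyp2d26 by diet in F/F (0.33) and W/F (0.012), Cyp3a25 by diet in F/F (0.074) and Nr1i2 on T0901317 in F/F (-0.023). Values that were never called also turned: with median-of-ratios scaling Cyp1a1 in F/F against W/W on vehicle (-0.29) and Cyp2a5 (0.46) and Cyp2c55 (0.34) on T0901317 in W/F, with hepatocyte-marker scaling Cyp1a2 in W/F against W/W on vehicle (0.053); leaving out 1 library, Cyp1a1 ranged from -0.070 to 0.24 and Cyp2a5 by diet in W/W from -0.15 to 0.41. Causes were not tested.

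Replicate numbers showed little sign of pairing the mice, which the mean correlation cannot exclude. Of 144 pairs with the same number 18 had r above 0.1, against 38 of 432 other pairs. Replicate 1 was the deepest library in some groups, such as F/F on T0901317 (35.7 M reads). In others it was not, such as W/W on vehicle (21.3 M). Shared handling was not tested. With the replicate block all 19 counts stayed within 1.5 times, and 3 calls were lost: Cyp2a22 (adjusted p = 0.0603) and Cyp2b9 (0.0501) on T0901317 in F/F, and Cyp2j6 in F/F against W/F on vehicle (0.0564); Cyp3a11 on T0901317 in W/F was gained (0.0484). Depth of 18.0 to 35.7 M reads limits members under 1 TPM, and close copies limit the Cyp2c, Cyp3a, Cyp2d and Cyp2a genes named above.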
